A study of Gallus gallus with 34 samples.

Results

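The genes described here are the enzymes that make sterols, make and lengthen fatty acids, and break fatty acids down, with the proteins that regulate sterol synthesis. Members were chosen by symbol from a list of 35 genes, of which 30 were found among the 13067 genes of the count table. The 30 comprised 9 of the 11 named sterol synthesis enzymes, 2 of the 3 named genes of SREBP control (INSIG1 and SREBF2), all 3 of fatty acid synthesis (FASN, ACACA and SCD), all 7 desaturases and elongases, and 9 of the 11 genes of fatty acid oxidation. IDI1, FDPS, ACADM and ACADVL were not matched by symbol and are not analysed here. SREBF1 was not matched either, but a gene under the symbol SREBP-1 is shown beside the members and counted with none of them. All 30 passed the filter on low counts in every fit.

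The tissue was retina, retinal pigment epithelium (RPE) and choroid collected as a single sample from the right eyes of male Leghorn/New Hampshire chicks, profiled by RNA sequencing. Chicks wore a negative lens (-10 diopters, which induces myopia), a positive lens (+10 diopters, which induces hyperopia) or No Lens. Groups of 4 chicks wore the negative lens and groups of 4 wore the positive lens for 1, 2 or 3 days, corresponding to posthatch days 6, 7 and 8. The No Lens groups held 3, 3 and 4 chicks of the same ages, so every comparison was between separate animals. Sequenced chicks were picked by the study for strong and cohesive biometric responses, and they do not represent unselected birds. The data column of 1 chick, No Lens chick 100 of day 3, carried an extra suffix that the sources used here do not explain.

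Sterols are built from acetyl-CoA by way of HMG-CoA, squalene and lanosterol, and the enzymes of this route are switched on together by the transcription factor SREBP-2, the product of SREBF2, when sterols in the endoplasmic reticulum are low. INSIG1 holds that factor back. Retina is rich in long-chain polyunsaturated fatty acids, which desaturases and elongases make for photoreceptor membranes, while pigment epithelium and Mueller glia also burn fatty acids in mitochondria, entered through the carnitine palmitoyltransferase CPT1A.

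Libraries held 1592763 to 13765634 counts, and the shallowest was chick 32 of the 3-day positive lens group. Markers of photoreceptors, Mueller glia, RPE, pigment cells, endothelium and smooth muscle were all detected where the table held them. Striated muscle markers summed to 202.8 to 295 CPM (counts scaled to the size of each library) in the 3-day negative lens group, 275.1 to 2198 CPM in the 3-day positive lens group, with chicks 26 and 36 highest, and 174.6 to 423.6 CPM in the 3-day No Lens group. Adipocyte markers summed to 46.24 to 85.64 CPM over all chicks. Within groups, the first principal component of log2 expression held 43.2% of the variance between chicks of the same group. Chick 13 (positive lens, 2 days), chick 2 (positive lens, 1 day) and chick 48 (negative lens, 2 days) stood furthest apart on it. Results most closely tied to this component, or that moved with the muscle markers, are marked as such. Looser correlations of members with it are given beside the correlations between members.

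Every member was expressed in every chick, with mean levels over the 34 chicks between 19.1 CPM for NSDHL and 578.2 CPM for FASN. CPM is not divided by transcript length, so the order of levels between genes has no meaning. Members differed more in how steady they were. ACADL, a long-chain acyl-CoA dehydrogenase, had a coefficient of variation of 7.32% over the 34 chicks and ACACA, acetyl-CoA carboxylase, 8.52%. SC5D, a sterol desaturase, reached 26.4% and ECHS1, the short-chain enoyl-CoA hydratase of mitochondrial oxidation, 30.4%. In mixed tissue, fewer cells of a type and less RNA per cell cannot be told apart.

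No member passed a threshold of 0.05 on the adjusted p (the quasi-likelihood test of edgeR, adjusted by Benjamini-Hochberg over all genes tested) in any of the 19 comparisons. The comparisons were 9 between lens groups of the same day (days 1, 2 and 3), 3 averaged over days, 6 between consecutive days and 1 interaction of lens with day. Few genes of the whole table passed either. For positive lens against No Lens the share was 0.878% after 3 days, 0% after 1 and 2 days and 0.0589% averaged over days. For negative against positive lens it was 0.0262%, 0.0526% and 0.0348% after 1, 2 and 3 days and 0.547% averaged, and for negative lens against No Lens 0% at each day and 0.135% averaged. Between days it was 0.0264% for day 2 against day 1 with the negative lens, 0.00873% for day 3 against day 2 with No Lens and 0% in the other steps, and it was 0% for lens by day. The results below are therefore descriptions of direction and size, set beside the share of all genes that reached the same mark. "Separate" is used where all chicks of a group lay above or below all chicks of the other.

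Sterol synthesis after 3 days held the most members at an unadjusted p under 0.05 in the comparison of negative with positive lens. Of the 9 enzymes, 8 had a positive log2 fold change (negative over positive lens) with a median of 0.26, against a median of -0.01 and 47.8% of fold changes above 0 over all genes tested. Over the 30 members, 7 reached an unadjusted p under 0.05, all higher with the negative lens, beside 2.55% of all genes higher at that mark and 4.03% lower. Those 7 were HMGCS1, LSS, CYP51A1, DHCR7 and MSMO1 of sterol synthesis, INSIG1, and the elongase ELOVL4.

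HMGCS1, which makes HMG-CoA at the head of the route, measured 127.4, 146.9, 129.9 and 126 CPM in the 4 negative lens chicks, against 105.8, 115.4, 112.3 and 106.4 CPM in the 4 positive lens chicks. The lowest negative lens chick was above the highest positive lens chick. The log2 fold change was 0.29 ± 0.07 (SE), or 1.22-fold, with an unadjusted p of 0.0012 and an adjusted p of 0.22.

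MSMO1, which removes methyl groups from lanosterol derivatives, measured 171.2, 198.4, 208.4 and 173 CPM with the negative lens and 159.7, 119.4, 157.8 and 153.3 CPM with the positive lens. Again no chick of either group lay within the range of the other, although positive lens chick 32, the shallowest library, was well below its group. The fitted log2 fold change was 0.34 ± 0.09, with an adjusted p of 0.3.

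DHCR7, the reductase of the last step to cholesterol, measured 59.39, 47.65, 48.82 and 59.21 CPM with the negative lens and 36.39, 31.04, 41.23 and 42.74 CPM with the positive lens. It was the member with the lowest p of this comparison, again with separate groups, at a log2 fold change of 0.49 ± 0.12, or 1.41-fold, and an adjusted p of 0.18. CYP51A1, the lanosterol demethylase, was the remaining separate gene, at 38.16 to 44.69 CPM with the negative lens and 26.32 to 36.91 CPM with the positive lens. Over all genes, 1.7% were separate and higher with the negative lens.

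**Figure D1:**
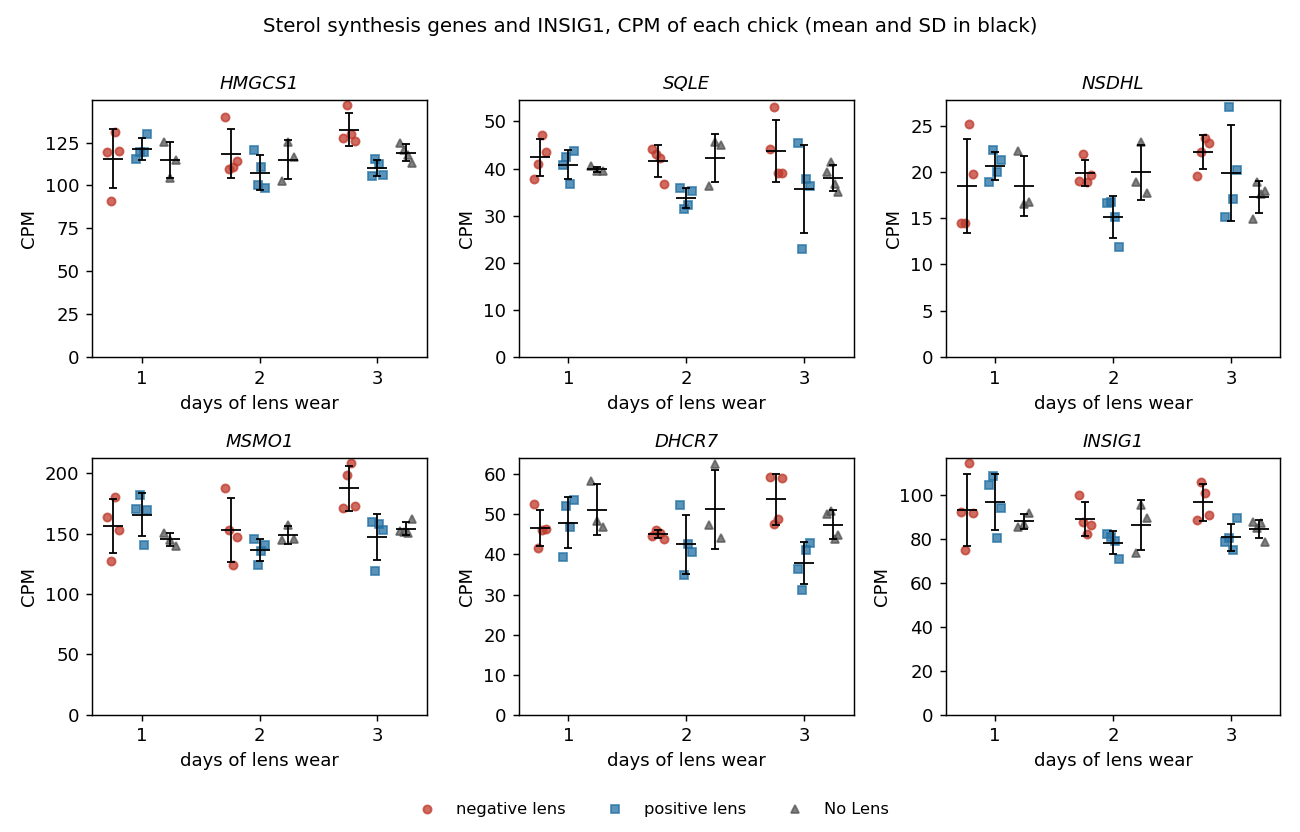
CPM of each chick (y axis, from 0) by days of lens wear (x axis) for 5 sterol synthesis enzymes and INSIG1, with the negative lens, positive lens and No Lens groups side by side and the group mean and SD in black. At 3 days the HMGCS1, MSMO1 and DHCR7 points of the negative lens chicks all lie above those of the positive lens chicks.

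SC5D was the exception among the 9. Its log2 fold change was -0.12 ± 0.19, with levels of 67.42 to 101.1 CPM with the negative lens and 72.94 to 143.1 CPM with the positive lens. LSS, the lanosterol synthase, overlapped between groups at a log2 fold change of 0.28 ± 0.12. FDFT1 (0.16), SQLE (0.26) and NSDHL (0.23) were higher by log2 fold change with unadjusted p above 0.05.

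The direction did not rest on a single chick. Leaving out each of the 8 chicks in turn left 8 or 9 of the 9 sterol enzymes above 0 with medians of 0.23 to 0.29, and DHCR7, HMGCS1, INSIG1 and MSMO1 stayed under an unadjusted p of 0.05 every time. Without negative lens chick 69, the number of members at that mark was 4 instead of 7. Without positive lens chicks 26 and 36 together, the chicks with the most muscle marker RNA, 8 of the 9 enzymes were again above 0, with a median of 0.24. Only positive lens chicks 32 and 33 then remained, and chick 32 was the shallowest library. With the within-group component as a covariate the median was 0.22 and 8 of 9 were above 0. In that edgeR fit DHCR7, HMGCS1, MSMO1 and INSIG1 stayed under an unadjusted p of 0.05, and SQLE joined them. CYP51A1 (0.094), LSS (0.12) and ELOVL4 (0.055) did not stay. Among the separate genes, the correlation with the component was -0.45 for MSMO1, -0.42 for DHCR7, -0.38 for CYP51A1 and -0.37 for HMGCS1. Neither of these last 2 alternatives was planned, and no member was called in either. Mueller glia markers moved in the same direction, summing to 3378 to 4011 CPM with the negative lens and 3217 to 3444 CPM with the positive lens, with all 4 measured markers above 0 by log2 fold change. Leukocyte markers went the other way without overlap, at 95.02 to 101.6 CPM (negative lens) and 105.3 to 130.7 CPM (positive lens). The part of either marker list in the result was not tested.

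**Figure D2:**
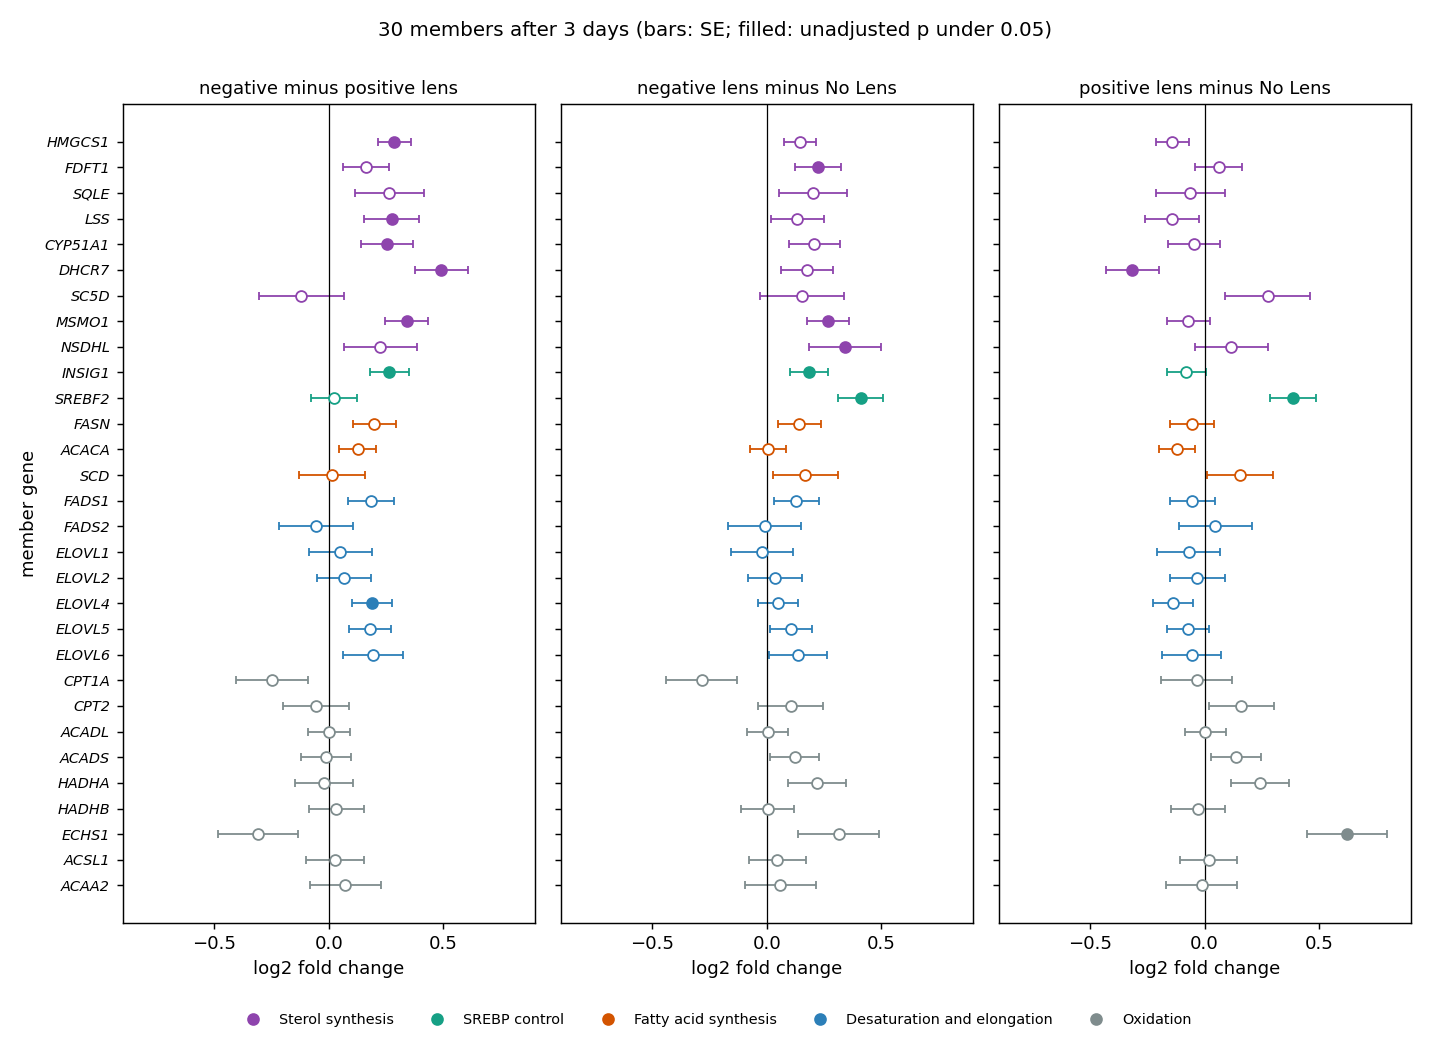
Log2 fold change (x axis) with its SE for each of the 30 members (y axis, colored by role) after 3 days, for negative against positive lens, negative lens against No Lens and positive lens against No Lens. Filled points had an unadjusted p under 0.05. In the first panel the sterol enzymes other than SC5D lie right of 0, while the oxidation genes have a median of -0.01.

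Set against No Lens chicks of the same age, the 3-day negative lens chicks were also higher. All 9 sterol enzymes had a positive log2 fold change, with a median of 0.2, where 51.4% of all genes were above 0. Of the 30 members, 5 reached an unadjusted p under 0.05, all higher, beside 6.74% of all genes higher: FDFT1, MSMO1, NSDHL, INSIG1 and SREBF2. MSMO1 stood at 171.2 to 208.4 CPM in the negative lens chicks, against 152, 151.5, 151 and 162.5 CPM with No Lens, without overlap, and its log2 fold change was 0.27 ± 0.09 with an adjusted p of 0.41. NSDHL, the sterol dehydrogenase that acts beside it, measured 19.56, 22.21, 23.66 and 23.15 CPM with the negative lens and 14.89, 18.91, 17.58 and 17.91 CPM with No Lens. These groups were separate too, at a log2 fold change of 0.34 ± 0.16. HMGCS1 stood at 126 to 146.9 CPM with the negative lens, against 124.6, 120.8, 118 and 113.1 CPM with No Lens, also without overlap, at a log2 fold change of 0.15 ± 0.07 and an unadjusted p of 0.057. In all, 5 members were separate and higher, beside 1.96% of all genes. Adipocyte markers were separate too, summing to 64.22 to 70.97 CPM with the negative lens and 51.84 to 63.46 CPM with No Lens, and their part in the result was not tested. The count of 5 was sensitive to single chicks. It was 2 without negative lens chick 60 or the No Lens chick with 110.7 CPM of FDFT1, and 3 without negative lens chick 68 or No Lens chick 100. MSMO1 and SREBF2 were among them in all 8 cases, and all 9 sterol enzymes were above 0 in each. With the within-group component as a covariate 8 of the 9 were above 0, with a median of 0.21.

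The positive lens group differed less from No Lens for sterol synthesis after 3 days. The log2 fold change was above 0 for 3 of the 9 enzymes, with a median of -0.06, where 48.5% of all genes were above 0. Of the 30 members 2 were higher (SREBF2 and ECHS1) and 1 lower (DHCR7) at an unadjusted p under 0.05, beside 13.1% of all genes higher and 4.5% lower, so the share of members higher was below that of all genes. DHCR7 was at 31.04 to 42.74 CPM in the positive lens chicks, against 50, 50.94, 43.85 and 44.91 CPM in the No Lens chicks. All 4 positive lens chicks lay below the No Lens range, beside 2.46% of all genes separate and lower. The log2 fold change of DHCR7 was -0.32 ± 0.12 with an adjusted p of 0.16. Without positive lens chick 32 the count at that mark was 5 instead of 3, with HMGCS1 and HADHA added. The negative and positive lens comparisons share the same No Lens chicks.

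After 2 days SQLE and NSDHL were the sterol enzymes whose negative and positive lens groups were apart at an unadjusted p under 0.05. All 9 had a positive log2 fold change for negative over positive lens, with a median of 0.13, where 51.6% of all genes were above 0. Both genes were higher with the negative lens, and no other member was at that mark, beside 0.859% of all genes higher. SQLE, the squalene epoxidase, measured 44.21, 43.09, 42.24 and 36.64 CPM with the negative lens, 35.85, 31.47, 32.34 and 35.25 CPM with the positive lens and 36.37, 45.57 and 44.93 CPM with No Lens. The positive lens chicks were below all chicks of the other groups. Its log2 fold change was 0.29 ± 0.11 against the positive lens for the negative lens chicks and -0.32 ± 0.12 against No Lens for the positive lens chicks.

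NSDHL had the same arrangement at 2 days, with 18.98, 21.9, 18.87 and 19.62 CPM with the negative lens, 16.63, 16.8, 15.18 and 11.86 CPM with the positive lens and 18.88, 23.29 and 17.71 CPM with No Lens. Its log2 fold change was 0.4 ± 0.15 for negative against positive lens. For both genes the positive lens chicks were separate from the other groups. Over all genes 0.657% were separate and higher for negative against positive lens, and 2.09% separate and lower for positive lens against No Lens. The adjusted p was 1.00 for both genes in these comparisons. Against No Lens, 2 of the 9 enzymes were above 0 in the positive lens group (median -0.13, beside 49.3% of all genes) and 5 of 9 in the negative lens group (median 0.01, beside 50% of all genes), and members at an unadjusted p under 0.05 numbered 3 with the positive lens (2.51% of all genes) and 0 with the negative lens (4.98%). Leaving out a single chick moved these small counts. For negative lens against No Lens, ELOVL1 was at that mark without negative lens chick 48 and ELOVL2 without negative lens chick 49. Without No Lens chick 84 only ELOVL2 was left of the 3, and without positive lens chick 13 there were 5. Between the lenses NSDHL alone was left without negative lens chick 48 and SQLE alone without negative lens chick 49, and 6 to 9 of the 9 enzymes were above 0 over the 8 cases.

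At 1 day, of the 9 enzymes, 3 were above 0 for negative against positive lens, with a median of -0.08, where 51.6% of all genes were above 0, and none reached an unadjusted p under 0.05. Levels were also compared between consecutive days within each lens group. In positive lens chicks all 9 enzymes were lower at day 2 than at day 1, with a median log2 fold change of -0.22 where 47.6% of all genes were above 0, and MSMO1, NSDHL and INSIG1 had an unadjusted p under 0.05 (0.971% of all genes lower). Without positive lens chick 2, whose library stood apart, none of the 3 was at that mark, and 8 or 9 of the 9 enzymes were lower with any single chick left out. In negative lens chicks all 9 were higher at day 3 than at day 2, with a median of 0.14, where 43.6% of all genes were above 0. DHCR7 was the sterol enzyme with an unadjusted p under 0.05 in that step (2.69% of all genes higher). The count of members at that mark, 3 with all chicks (5.09% of all genes), was 7 without negative lens chick 48, 5 without negative lens chick 68 and 1 without negative lens chick 58. In No Lens chicks 7 of 9 were above 0 at day 2 against day 1 and 4 of 9 at day 3 against day 2, with medians of 0.01 and -0.05, where 48.7% and 50.1% of all genes were above 0. In positive lens chicks no member was at an unadjusted p under 0.05 for day 3 against day 2 (4.09% of all genes). In No Lens chicks the elongase ELOVL6 was the member at that mark for day 2 against day 1 (5% of all genes). It was not at that mark without No Lens chick 74, 77, 82 or 84, with FADS1 in its place without chick 77 or 82. ECHS1 was added without chick 73 or 85, and SREBF2 without chick 73. No test compared these steps between lens groups other than the interaction described further on.

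**Figure D3:**
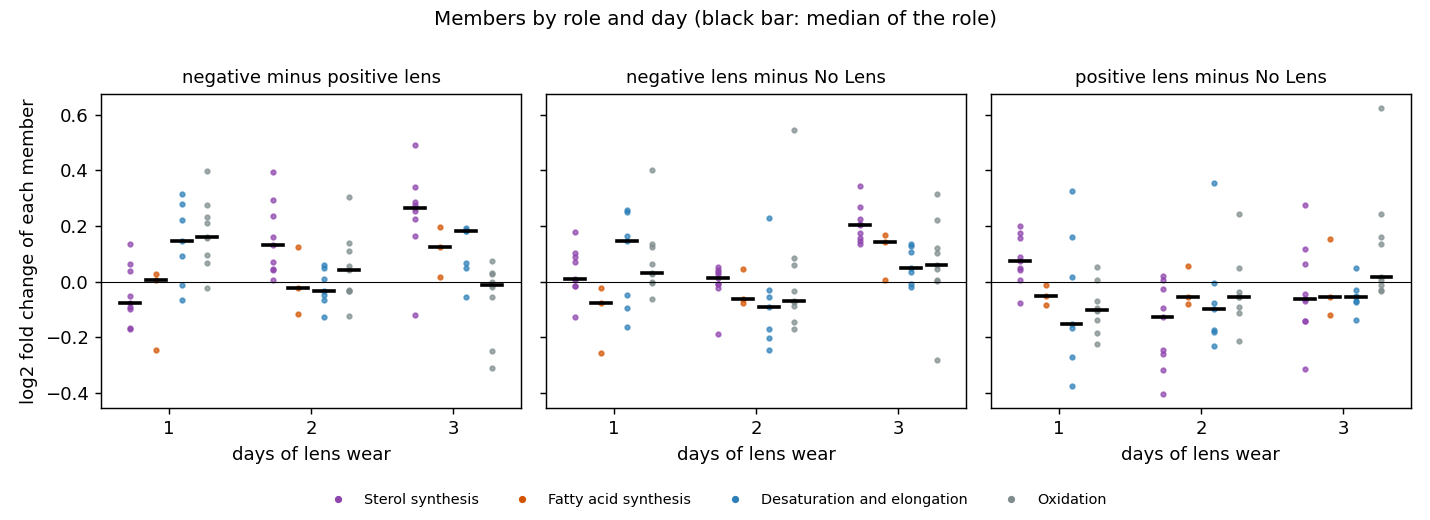
Log2 fold change of each member (y axis, points) by days of lens wear (x axis), grouped and colored by role with the median of the role as a black bar. INSIG1 and SREBF2 are left out. The sterol synthesis median for negative against positive lens is -0.08 at 1 day, 0.13 at 2 days and 0.26 at 3 days.

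INSIG1 is itself a target of the factor it restrains, and it followed the enzymes. At 3 days it measured 88.48, 106.1, 101 and 90.89 CPM with the negative lens, 78.5, 80.3, 75 and 89.37 CPM with the positive lens and 87.69, 84.91, 87.1 and 78.43 CPM with No Lens. Negative lens chicks were all above the No Lens chicks and overlapped with the positive lens group through a single bird. The log2 fold change was 0.26 ± 0.09 for negative against positive lens (unadjusted p 0.0074, adjusted p 0.51) and 0.18 ± 0.08 for negative lens against No Lens (adjusted p 0.48).

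SREBF2 went with the enzymes for negative lens against No Lens at 3 days, but not for positive lens against No Lens or between the lenses. At 3 days it measured 132.4, 157.7, 119.4 and 107.1 CPM with the negative lens, 130, 125.5, 129.4 and 127 CPM with the positive lens and 89.71, 104.2, 101.2 and 91.56 CPM with No Lens. All lens-wearing chicks were above all No Lens chicks, beside 1.96% (negative lens) and 9.14% (positive lens) of all genes separate and higher. The log2 fold change against No Lens was 0.41 ± 0.1 for the negative lens (adjusted p 0.41) and 0.39 ± 0.1 for the positive lens (adjusted p 0.061), and 0.02 ± 0.1 between the lenses.

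ECHS1 was the other member higher with the positive lens than with No Lens at 3 days, at 31, 29.69, 31.8 and 27.58 CPM with the positive lens against 18.57, 21.03, 18.39 and 18.83 CPM with No Lens. Its groups were separate, beside 9.14% of all genes separate and higher in this comparison. Scleral cartilage markers were separate too, at 133.5 to 178.7 CPM (positive lens) and 89.72 to 128.9 CPM (No Lens). With the negative lens they summed to 78.3 to 164.3 CPM, and their part in the result was not tested. The log2 fold change of ECHS1 was 0.62 ± 0.18, or 1.54-fold, with an adjusted p of 0.077. Both genes moved with the within-group component, to which their Pearson correlation over the 34 chicks was 0.96 for SREBF2 and 0.95 for ECHS1. On this component the 3-day negative lens chicks spanned -26.2 to 20.8, the positive lens chicks 13.7 to 20.3 and the No Lens chicks -23.4 to -4.85, the last 2 groups without overlap. With the component as a covariate, the log2 fold changes for positive lens against No Lens at 3 days were 0.12 ± 0.11 for SREBF2 and 0.01 ± 0.15 for ECHS1. In that fit 0 genes of the whole table passed. Because these 2 groups did not overlap on the component, lens and component cannot be told apart there. For negative lens against No Lens the same fit gave 0.24 ± 0.09 for SREBF2 (unadjusted p 0.018 by edgeR) and -0.09 ± 0.12 for ECHS1. Without the component, SREBF2 and ECHS1 passed an adjusted p of 0.05 under DESeq2 (0.024 and 0.036), limma-voom with quality weights (0.033 and 0.038) and the fit of these groups alone (0.015 and 0.0095). Over all genes, 549 of 11501 passed under DESeq2, 662 of 11501 under limma-voom and 654 of 11348 in the fit of these groups alone. Without positive lens chicks 26 and 36, the log2 fold changes were 0.37 ± 0.13 for SREBF2 and 0.66 ± 0.23 for ECHS1. Their adjusted p by edgeR were then 0.29 and 0.28.

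The count table also holds a gene under the symbol SREBP-1 (the factor that drives fatty acid synthesis), whose annotation text names SREBF1. It varied more than any member, from 2.34 to 53.9 CPM over the 34 chicks, and its correlation with the component was 0.98. At 3 days it ranged from 8.64 to 39.6 CPM with the negative lens, 25.2 to 45.4 CPM with the positive lens and 10.7 to 15.6 CPM with No Lens.

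None of the 3 fatty acid synthesis genes reached an unadjusted p under 0.05 between lens groups at 3 days, and all 3 had a positive log2 fold change for the negative lens against the positive lens (median 0.13) and against No Lens (median 0.14). FASN, the fatty acid synthase, averaged 637.3 ± 64.8 CPM with the negative lens, 558.7 ± 63.7 CPM with the positive lens and 573.8 ± 31.4 CPM with No Lens at 3 days (SD). Negative lens chick 69 was at 733.4 CPM. The rest of its group was at 591.9 to 615.6 CPM, within the ranges of the positive lens and No Lens groups. The log2 fold change of FASN between the lenses was 0.2 ± 0.09 with an unadjusted p of 0.053. FASN was under an unadjusted p of 0.05 without negative lens chick 68 or positive lens chick 36, and at 0.31 ± 0.12 (unadjusted p 0.022) without positive lens chicks 26 and 36. For negative lens against No Lens it was 0.14 ± 0.09, and 0.24 ± 0.1 (unadjusted p 0.029) with the within-group component as a covariate. ACACA had 0.13 ± 0.08 for negative against positive lens. SCD, the stearoyl-CoA desaturase, had 0.02 ± 0.14 between the lenses at 3 days, with overlapping groups. Within negative lens chicks SCD was higher at day 3, at 27.43, 34.99, 22.91 and 30.19 CPM, than at day 2, at 19.7, 21.19, 25.3 and 20.22 CPM. The ranges overlapped. The fitted log2 fold change was 0.42 ± 0.15 (unadjusted p 0.017, adjusted p 0.95), and it was 0.32 ± 0.18 in the positive lens and 0.22 ± 0.13 in the No Lens chicks.

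Among desaturases and elongases, FADS1 and FADS2, the front-end desaturases of polyunsaturated fatty acid synthesis, had fold changes of opposite sign with the positive lens at 1 day. FADS1 measured 73.48, 78.48, 88.8 and 74.3 CPM in negative lens chicks, 65.54, 63.4, 66.78 and 62.1 CPM in positive lens chicks and 87.3, 89.96 and 75.07 CPM with No Lens. Positive lens chicks were below every chick of the other groups of that day. Over all genes, 2.68% were separate and lower with the positive lens than with No Lens. Between the lenses 1.13% were separate and higher with the negative lens. Adipocyte markers had the same arrangement as FADS1. They summed to 70.47 to 74.68 CPM with the negative lens, 53.41 to 66 CPM with the positive lens and 67.75 to 85.64 CPM with No Lens. Smooth muscle markers summed to 722 to 1094 CPM with the negative lens, 541.8 to 844.6 CPM with the positive lens and 900.5 to 991.3 CPM with No Lens, and the part of either in the 1-day results was not tested. The log2 fold change was -0.38 ± 0.09 for positive lens against No Lens (unadjusted p 0.0017) and 0.28 ± 0.09 for negative against positive lens (unadjusted p 0.0078), with adjusted p of 1.00 and 0.997 by edgeR. FADS2 measured 164.9, 171.1, 234.3 and 151.1 CPM with the positive lens and 144.6, 130.6 and 156.3 CPM with No Lens. These overlapped, at a log2 fold change of 0.33 ± 0.14.

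Of the 30 members, 4 had an unadjusted p under 0.05 for positive lens against No Lens at 1 day (3.87% of all genes). Besides FADS1 and FADS2 these were ELOVL5, an elongase of polyunsaturated chains, and ACAA2, the thiolase that ends each cycle of oxidation, at -0.22 ± 0.1. ELOVL5 measured 96.59, 111.2, 100.8 and 82.32 CPM with the positive lens and 117.6, 131.8 and 105.6 CPM with No Lens. These ranges overlapped through positive lens chick 2, at a log2 fold change of -0.27 ± 0.12. FADS1 kept its p under 0.05 without any single chick of that day, but without No Lens chick 73 or 74 it was the only 1 of the 4. Without positive lens chick 1 or 11, FADS1 and FADS2 were left. FADS2 was not at that mark without positive lens chick 8, which had 234.3 CPM of it, and FADS1, ELOVL5 and MSMO1 were. For negative lens against No Lens 2 members were at that mark (3.18% of all genes), ELOVL2 and CPT1A, and none without No Lens chick 73. Single genes remained without negative lens chick 44 (ELOVL2), negative lens chick 45 (CPT1A) or No Lens chick 74 (ELOVL2). Averaged over the 3 days FADS1 had the lowest p of the members for negative against positive lens, with a log2 fold change of 0.16 ± 0.06 and an adjusted p of 0.43.

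ELOVL2, which extends polyunsaturated chains toward docosahexaenoic acid, measured 290, 225.9, 325.9 and 340.8 CPM in negative lens chicks of day 2, 330.4, 322.9, 321.6 and 308.8 CPM in positive lens chicks and 243.5, 249.2 and 259.3 CPM with No Lens. The positive lens chicks were separate from No Lens, at a log2 fold change of 0.36 ± 0.12 (unadjusted p 0.012, adjusted p 1.00). No Lens chicks of day 3 measured 286.1, 304.7, 372.7 and 319.8 CPM, all above those of day 2, with a log2 fold change of 0.36 ± 0.09 and an adjusted p of 0.33. In that step 2 of the 30 members were at an unadjusted p under 0.05, ELOVL2 and ELOVL6, beside 4.9% of all genes. Over all genes 2.91% were separate and higher in that step, and 1.68% were for positive lens against No Lens at day 2.

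Of the other elongases, ELOVL1 and ELOVL4 differed between days 1 and 2 in negative lens chicks. ELOVL1, which extends saturated very long chains, measured 49.41, 69.54, 51.46 and 59.68 CPM in negative lens chicks at 1 day and 47.33, 37.48, 33.23 and 43.85 CPM at 2 days, with no overlap and a log2 fold change of -0.49 ± 0.13 (unadjusted p 0.0024, adjusted p 0.51). ELOVL4, whose very long-chain products are characteristic of photoreceptors, was higher at day 2 than at day 1 in the same groups, by 0.18 ± 0.07 on the log2 scale. In that step 4 members reached an unadjusted p under 0.05 (5.57% of all genes), the others being CPT1A and CPT2. Over all genes 2.38% were separate and lower in that step. At 3 days ELOVL4 measured 183.2, 177.1, 185.1 and 172.9 CPM with the negative lens and 169.1, 147.1, 173 and 143.6 CPM with the positive lens. The ranges touched at a single bird of each group, and the log2 fold change was 0.19 ± 0.09 (unadjusted p 0.049).

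**Figure D4:**
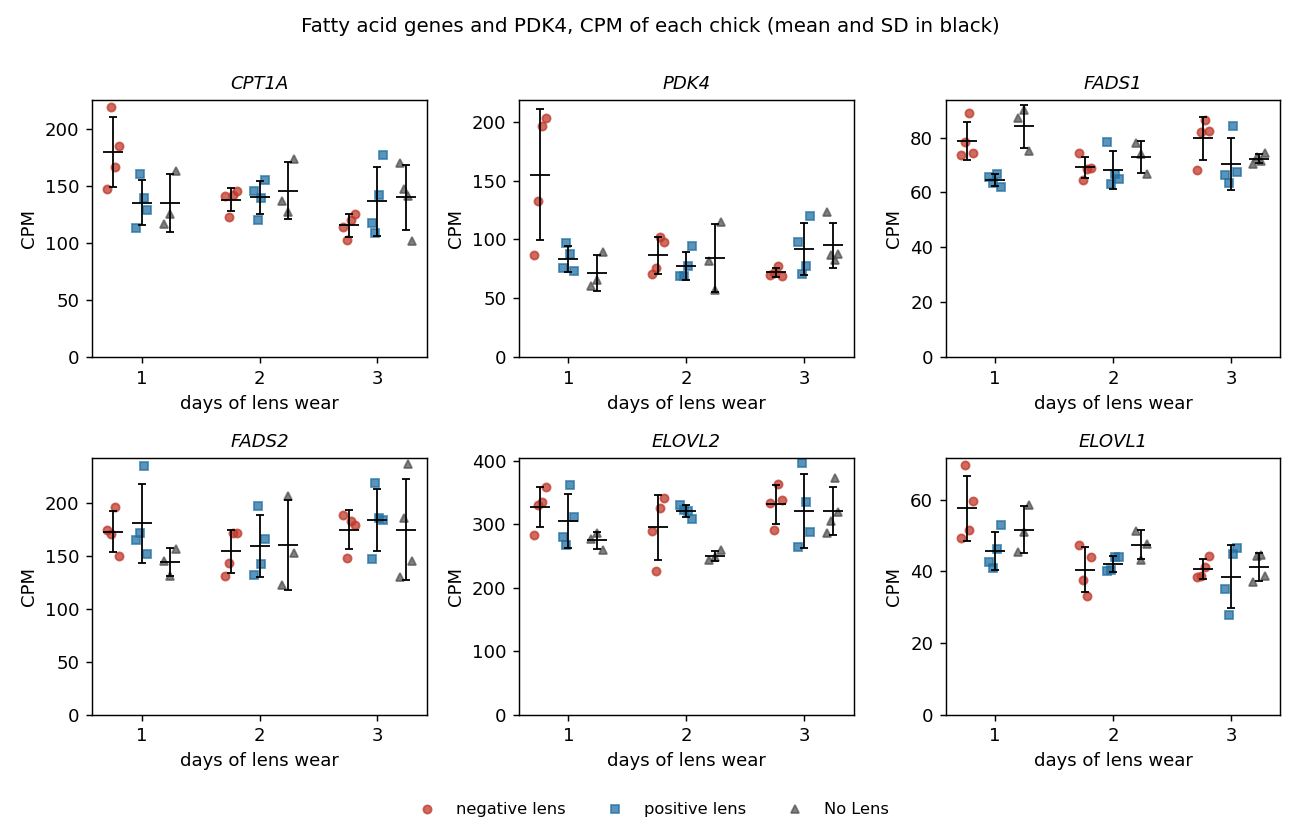
CPM of each chick (y axis, from 0) by days of lens wear (x axis) for CPT1A, the non-member PDK4, FADS1, FADS2, ELOVL2 and ELOVL1, with group mean and SD in black. Negative lens chicks average 180 CPM of CPT1A and 155 CPM of PDK4 at 1 day and 115.7 and 71.9 CPM at 3 days.

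Among oxidation genes, CPT1A, which admits long-chain fatty acids into mitochondria, averaged less with each day of negative lens wear. Negative lens chicks measured 147.6, 219.6, 167.3 and 185.4 CPM at 1 day, 141.8, 122.9, 142.4 and 146 CPM at 2 days and 114.5, 102.5, 120.2 and 125.8 CPM at 3 days. All day-1 chicks were above all day-2 chicks, and the log2 fold changes of the steps were -0.37 ± 0.11 (unadjusted p 0.0046, adjusted p 0.6) and -0.28 ± 0.11 (unadjusted p 0.024, adjusted p 0.97). Over all genes 2.38% were separate and lower at day 2 than at day 1 with the negative lens. The positive lens groups averaged 135.6, 140.3 and 136.6 CPM at 1, 2 and 3 days, and the No Lens groups 135.3, 146.1 and 140.4 CPM.

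At 1 day the log2 fold change of CPT1A was 0.4 ± 0.14 for negative against positive lens and 0.4 ± 0.15 for negative lens against No Lens, with overlapping groups and adjusted p of 1.00. Between the lenses 4 members were at an unadjusted p under 0.05 at 1 day, all higher with the negative lens (1.88% of all genes higher): FADS1, ELOVL1, CPT1A and the acyl-CoA ligase ACSL1. Without negative lens chick 44, which had the highest CPT1A and ELOVL1, FADS1 was the only member left. At 3 days the sign of CPT1A turned, with -0.25 ± 0.16 for negative against positive lens and -0.28 ± 0.16 for negative lens against No Lens, neither under an unadjusted p of 0.05.

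In the test of lens by day, 3 of the 30 members had an unadjusted p under 0.05 (3.73% of all genes): CPT1A (0.024), FADS1 (0.044) and DHCR7 (0.047). None of the 3 was at that mark without negative lens chick 44, and many other single omissions left CPT1A alone. Their adjusted p were 1.00 by edgeR, so no difference of the lens effect between days was established for any member.

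Of the 9 oxidation genes, CPT1A included, 4 were above 0 for negative against positive lens at 3 days. The median was -0.01, and none reached an unadjusted p under 0.05. Besides CPT1A, ECHS1 had a log2 fold change of -0.31 ± 0.18, which reached that mark without negative lens chick 60. HADHA and HADHB, the subunits of the mitochondrial trifunctional protein, had log2 fold changes of -0.02 ± 0.13 and 0.03 ± 0.12. At 3 days HADHA measured 51.04, 57.82, 50.7 and 60.38 CPM with the negative lens, 58.79, 37.79, 59.09 and 64.3 CPM with the positive lens and 43.57, 45.73, 46.68 and 52.07 CPM with No Lens. The 3 groups overlapped. Sterol synthesis and oxidation gave different medians for negative against positive lens at 3 days, 0.26 for the sterol enzymes and -0.01 for oxidation. That difference was described and not tested. Without positive lens chicks 26 and 36 together, 7 of the 9 oxidation genes were above 0, with a median of 0.07. With the within-group component as a covariate 3 of the 9 were above 0, with a median of -0.07. In these fits the sterol medians were 0.24 and 0.22.

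Averaged over the 3 days, 27 of the 30 members were above 0 for negative against positive lens, where 52.6% of all genes were, with a median of 0.08. At an unadjusted p under 0.05 there were 6 members, all higher (2.36% of all genes higher): SQLE, CYP51A1, DHCR7, INSIG1, FADS1 and ELOVL5. SQLE had 0.2 ± 0.07 with an adjusted p of 0.45. The number was 3 without negative lens chick 48 or positive lens chick 15. Negative lens against No Lens gave 4 members (MSMO1, SREBF2, ELOVL2 and HADHA, all higher, 3.8% of all genes higher), a count that was 0 without No Lens chick 73 or No Lens chick 100 and 1 or 2 without most other single chicks. Positive lens against No Lens gave 5 (DHCR7, FADS1, ELOVL4 and ELOVL5 lower and ELOVL2 higher, beside 3.49% of all genes lower and 2.86% higher), or 3 without No Lens chick 100.

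Other genes of the same pathways were read from 3 further lists. Of 19 other sterol genes 12 were tested at 3 days. For negative against positive lens 9 of these 12 were above 0 (47.8% of all genes) with a median of 0.16, and 2 were higher (2.55% of all genes) and 1 lower (4.03%) at an unadjusted p under 0.05. STARD4, which carries sterol between membranes, measured 175.5, 165.5, 178.4 and 185.8 CPM with the negative lens and 143.5, 130.9, 156.9 and 144.2 CPM with the positive lens. The groups were separate, at a log2 fold change of 0.3 ± 0.08 and an adjusted p of 0.24. The lower gene was MYLIP, a ubiquitin ligase that removes the LDL receptor, at -0.23 ± 0.08, again separate. Over all genes 1.7% were separate and higher with the negative lens and 2.03% separate and lower. Both genes moved inversely with the within-group component (r -0.53 for STARD4 and -0.56 for MYLIP over the 34 chicks). With that component as a covariate the log2 fold changes between the lenses were 0.26 ± 0.08 for STARD4 and -0.23 ± 0.09 for MYLIP. For negative lens against No Lens, 8 of the 12 were above 0 (51.4% of all genes) with a median of 0.18. At that mark 5 were higher, among them SCAP, ACAT2, STARD4 and HSD17B7 (6.74% of all genes), and MYLIP was lower (3.53%). SCAP, which escorts the SREBP factors, was higher with both lenses at 3 days, by 0.43 ± 0.1 for the negative and 0.41 ± 0.1 for the positive lens. SCAP moved with the within-group component (r 0.82 over the 34 chicks). With that component as a covariate the log2 fold changes were 0.39 ± 0.12 for the negative and 0.34 ± 0.15 for the positive lens. The adjusted p by edgeR were then 0.84 and 0.98. For positive lens against No Lens at 3 days, lens and component cannot be told apart.

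Of the 30 other genes of oxidation and ketone metabolism 25 were tested, and for negative against positive lens at 3 days 14 were above 0 (47.8% of all genes) with a median of 0.04. PDK4, which turns carbohydrate use down when fat is burned, had a course like that of CPT1A. It measured 86.56, 132.7, 196.8 and 203.5 CPM in negative lens chicks at 1 day, against 75.43, 97.05, 87.95 and 73.03 CPM with the positive lens and 60.56, 65.41 and 88.93 CPM with No Lens. The groups overlapped through the lowest negative lens chick. The log2 fold change against No Lens was 1.1 ± 0.25 at 1 day (unadjusted p 0.00084, adjusted p 0.62) and -0.42 ± 0.15 at 3 days, when all negative lens chicks were below all No Lens chicks. The lens by day test of PDK4 gave an unadjusted p of 0.0004 and an adjusted p of 0.79. BDH1 of the same list had the opposite course with the negative lens. Against No Lens it was separate and lower at 1 day (-0.18 ± 0.08) and separate and higher at 3 days (0.24 ± 0.07). Its lens by day test gave an unadjusted p of 0.0031 and an adjusted p of 0.93 by edgeR. Over all genes 3.73% had an unadjusted p under 0.05 in that test. For negative lens against No Lens, 2.82% of all genes were separate and lower at 1 day. At 3 days 1.96% were separate and higher and 1.98% separate and lower. The 10 further genes of fatty acid synthesis and elongation, of which 4 were tested, had medians of -0.03 between the lenses and 0.12 for negative lens against No Lens at 3 days, none under an unadjusted p of 0.05.

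Whether members varied together among chicks of the same group was read from log2 CPM after removal of group means, over 34 chicks that share no library but differ in depth. The median Pearson correlation over the 435 pairs of members was 0.068, and that over all gene pairs -0.0066. The 9 sterol enzymes were not closely tied, with a median of 0.05 over their 36 pairs and a range of -0.51 to 0.66. A correlation of at least 0.8 in size was found for 0.69% of member pairs and 1.22% of all gene pairs. Of the 435 member pairs, 8 had an adjusted permutation p under 0.05. The share of all gene pairs at that mark was not computed, so this count has no background beside it.

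SREBF2 and ECHS1 gave the highest correlation (Pearson's r 0.93, Spearman's rho 0.85, permutation p 1e-05, the smallest that 100000 permutations can give, adjusted p 0.0043), which was 0.88 without the 2 chicks farthest from the median of SREBF2. SC5D went with both (0.84 and 0.83). HADHA and HADHB, which lie side by side in many vertebrate genomes and encode a single enzyme complex, had r 0.77 (rho 0.68, permutation p 0.00019, adjusted p 0.021, and 0.66 without the 2 farthest chicks). In sterol synthesis CYP51A1 and MSMO1 had r 0.66 (rho 0.58, permutation p 0.0008, adjusted p 0.043, and 0.59 without the 2 farthest chicks). HMGCS1 and INSIG1 had r 0.65 with an adjusted permutation p of 0.066. SREBF2, ECHS1 and SC5D were the members most closely tied to the within-group component (SC5D r 0.82). Of the other members FDFT1 had the highest correlation with it, at 0.39. Looser negative correlations included ELOVL5 (-0.48), FASN (-0.46), MSMO1 (-0.45), FADS1 (-0.44) and DHCR7 (-0.42).

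**Figure D5:**
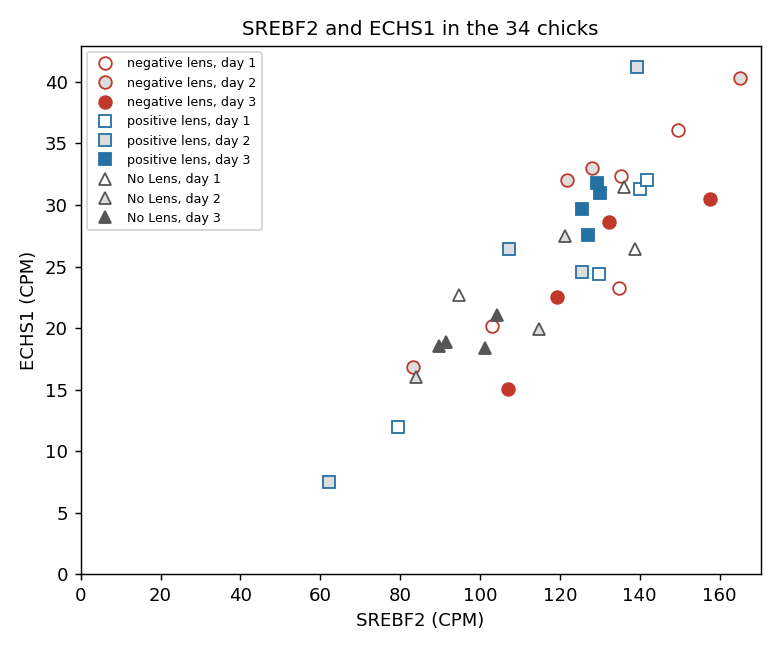
CPM of SREBF2 (x axis, from 0) and ECHS1 (y axis, from 0) in each of the 34 chicks, with the lens shown by color and shape and the day by the fill. The 4 positive lens chicks of day 3 lie together at 125.5 to 130 CPM of SREBF2, above the 4 No Lens chicks of day 3 at 89.71 to 104.2 CPM.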

How the data were processed

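Retina/RPE/choroid RNA of 34 chicks was sequenced by the authors, whose deposited table holds raw read counts per Ensembl gene. Per the submitters' processing notes and the study's methods, the tools included FastQC, cutadapt, Trimmomatic, TopHat2, Bowtie2 and HTSeq with the galGal4 chicken genome. Versions are not given in the sources used here. No column was left without a chick.

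Genes were filtered (edgeR filterByExpr, minimum count 10, minimum total 15), TMM-normalized and tested with edgeR 4.0.16 quasi-likelihood (glmQLFit and glmQLFTest, R 4.3.3), each day in a fit of its own, consecutive days within each lens group, and averages and the lens by day test in a fit of all chicks. P-values were adjusted by Benjamini-Hochberg over all genes tested. CPM used TMM library sizes. The test was checked on simulated counts drawn independently for each gene, which do not carry the within-group component. Alternatives were DESeq2 1.42.0, limma-voom (limma 3.58.1) with sample quality weights, RLE normalization, no filter, fits of only the compared groups or of all chicks, and leaving out each chick. The within-group component and the omission of chicks 26 and 36 together were added after the data were seen. Correlations between members were planned as description without a test, so their permutation p were an addition to that plan. Depth (1592763 to 13765634 counts) limits precision.

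The members, pathway lists and markers were chosen with earlier results of these data known. Members named with full statistics were the 2 with the lowest p in each lens comparison, the lowest in the lens by day test, and HMGCS1, SQLE, INSIG1, SCD, ELOVL4, CPT1A and HADHA. The others named with each chick's value, and genes outside the member list, were chosen after their values were seen.

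Sequences and coordinates are not used here. Single values of some genes outside the member list are not reported here.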

Additional observations from a re-analysis of the deposited data

Results flagged for a closer look

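Among 119 groups of 4 chicks (17 named members in the groups of that size), 5 had a chick far from the other 3, where chance alone marks about 1 in 20 groups. HMGCS1 was 139.8 CPM in chick 48 (negative lens, 2 days), against 109.9 to 114.1 CPM in its group. MSMO1 was 119.4 CPM in chick 32 (positive lens, 3 days), the shallowest library, against 153.3 to 159.7 CPM, and 162.5 CPM in a No Lens chick of 3 days, against 151 to 152 CPM. ELOVL4 was 199.7 CPM in chick 100 (No Lens, 3 days), against 160 to 165.3 CPM. ECHS1 was 21.03 CPM in another No Lens chick of 3 days, against 18.39 to 18.83 CPM.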

How the results depend on the processing

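The number of members called was 0 in each of the 19 comparisons as reported and was 0 with RLE normalization, with no filter, with all 34 chicks in the fit, with the within-group component and without chicks 26 and 36, where those were run. DESeq2 called 2 members for positive lens against No Lens after 3 days (SREBF2 and ECHS1), 1 for negative against positive lens after 3 days (DHCR7, adjusted p 0.04, where DESeq2 called 51 genes in all and edgeR 4) and 1 for No Lens day 3 against day 2 (ELOVL2, adjusted p 0.028). In the step from day 2 to day 3 with No Lens, DESeq2 called 49 genes in all and edgeR 1. The fit of only the compared groups and limma-voom each called 2, again SREBF2 and ECHS1. Leaving out single chicks gave 0 to 2 calls for negative lens against No Lens after 3 days, the 2 (SREBF2, adjusted p 0.017, and ECHS1, adjusted p 0.049) being without negative lens chick 69, and 0 in the other comparisons. The causes of these differences were not tested. Genes called over the whole table for positive lens against No Lens after 3 days ranged from 0 with the within-group component, and 0 without chicks 26 and 36, through 6 with all 34 chicks in the fit and 101 as reported to 549 with DESeq2, 654 with only the compared groups and 662 with limma-voom. The number of members at an unadjusted p under 0.05 moved by over 1.5 times in some comparisons. For negative lens against No Lens averaged over days it was 2 under DESeq2, RLE and no filter, and 4 as reported. For lens by day it was 1 under these 3 and 11 with limma-voom, and 3 as reported. For negative lens against No Lens after 2 days it was 4 with limma-voom and 0 as reported. The 58 member fold changes followed under the alternatives were those already at an unadjusted p under 0.05, and none changed sign. That choice makes a change of sign unlikely. Members outside it could change sign. SC5D for negative lens against No Lens after 3 days went from above 0 to -0.02 with the within-group component as a covariate. No paired analysis was possible because each chick number occurs in a single group. The low depth of chick 32 leaves its values with the least precision.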
